A study of Mus musculus with 12 samples.

Results

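The genes of 10 exporters that move bile acids, phospholipid, sterols and conjugates out of the hepatocyte were followed in mouse liver with and without *Yap1*. They were taken by name from the deposited table, and all 10 members were found among its 25676 genes. Of these, 6 act at the canalicular membrane, which faces the bile (*Abcb11*, *Abcc2*, *Abcb4*, *Atp8b1*, *Abcg5* and *Abcg8*), and 4 at the basolateral membrane, which faces the blood (*Abcc3*, *Abcc4*, *Slc51a* and *Slc51b*). RNA was sequenced in 12 liver libraries from mice on a C57BL/6 background at 3 to 4 months of age: 3 WT males, 3 WT females, 3 KO males and 3 KO females. In the KO group *Yap1*, which encodes a co-activator of the TEAD transcription factors, was removed with Cre recombinase under *Foxa3* control. The labels give no genotype for the WT mice beyond WT. *Foxa3* is active in the embryonic endoderm that gives rise to hepatocytes and to bile duct cells, so the deletion is not limited to hepatocytes by design.

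Bile forms when hepatocytes pump solutes across the canalicular membrane and water follows. ABCB11 exports bile acids and ABCC2 exports conjugated bilirubin and glutathione conjugates. ABCB4 moves phosphatidylcholine into bile, ATP8B1 keeps the canalicular membrane ordered, and the ABCG5 and ABCG8 half-transporters together export cholesterol and plant sterols. ABCC3, ABCC4 and the heterodimer of OSTα and OSTβ (*Slc51a* and *Slc51b*) carry bile acids and conjugates back to the blood. These basolateral carriers are low in the healthy mouse liver, apart from ABCC3, and are known as an overflow route in cholestasis. Several of the genes are targets of the bile acid receptor FXR (*Nr1h4*), which binds inverted repeats of a hexamer.

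Values are TPM (transcript abundance per gene length, scaled to a fixed sum in each library) as deposited by the authors. Each library summed to 1000000 and had between 14321 and 15482 genes above 0. TPM keeps no read depth, so the counting error of a value is unknown. *Yap1* was at 23.0 to 34.9 TPM in WT and 0.994 to 3.11 TPM in KO, lower in every KO library. The labels do not state that each library came from a separate mouse, although each carries a separate number, so p-values measure only the spread between these libraries, which may be technical. Other number series appear in the labels of 3 libraries. WT female replicate 3 and KO female replicate 1 have lower title numbers than the rest. WT male replicate 2 has a letter after its title number and a library code apart from the run of the others. The fit with a covariate for number series marked only WT female replicate 3 and KO female replicate 1. Fold changes are differences of log2(TPM + 1), which understates changes of low genes. The median log2 fold change of all 12278 tested genes was 0.35 in KO as deposited and -0.039 after median-of-ratios rescaling (division of each library by the median ratio of its genes to their geometric mean), so genotype calls are given on both scales. In whole liver, fewer cells of a type and less RNA per cell cannot be told apart.

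Promoter windows of RefSeq (GRCm38.p6, 250 bases before to 50 after a gene start) were present for 8 of the 10 members. The sequences below, written 5′ to 3′, are from a canalicular gene whose genotype call depended on the scaling, from the member with the largest rise, and from the interval between the starts of a pair that fell together. Both strands were searched for 3 motifs. The inverted repeat bound by FXR, AGGTCANTGACCT, was allowed up to 2 mismatches at its 12 fixed letters and was in 1.14% of all 32851 windows. The TEAD core GGAATG was in 14.7% and the antioxidant response core TGACNNNGC in 12.4%. Capitals mark the matches, and no matches overlapped.
Abcb11, chr2:69342617-69342866, minus strand: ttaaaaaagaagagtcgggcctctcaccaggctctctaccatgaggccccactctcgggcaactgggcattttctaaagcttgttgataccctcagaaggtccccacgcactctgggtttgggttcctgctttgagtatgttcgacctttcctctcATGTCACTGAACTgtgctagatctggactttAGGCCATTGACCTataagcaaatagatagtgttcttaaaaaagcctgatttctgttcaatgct
Slc51b, chr9:65422774-65422803, minus strand: acacagaaaccagggcCATTCCacccagcc
Abcg5-Abcg8 interval, chr17:84683012-84683120, plus strand: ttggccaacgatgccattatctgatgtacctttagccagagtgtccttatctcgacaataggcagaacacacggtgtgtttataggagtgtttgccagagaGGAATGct
The *Abcb11* window held 2 matches to the inverted repeat. One began 63 bases before the gene start with 1 mismatch, and the other began 94 bases before it with 2 mismatches. The TEAD core lay 14 bases before the RefSeq start of *Slc51b*, which GENCODE places in the first exon because its gene model begins further upstream. RefSeq gives *Abcg8* 2 windows. In the one used here, *Abcg5* and *Abcg8* are transcribed away from each other from starts at 84683011 and 84683121, and the same TEAD core match, 8 bases before that *Abcg8* start, lay in the windows of both genes. The other *Abcg8* window, at a start of 84676302 inside *Abcg5*, where GENCODE begins the gene, held none of the 3 motifs. The antioxidant response core was found in the *Abcc2* window and in both *Abcc4* windows. None of the 3 motifs was in the windows of *Abcb4* or *Slc51a*. These matches describe letters only, and no binding was measured.

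As deposited, 6 of the 9 members tested rose in KO (*Abcb11*, *Abcb4*, *Atp8b1*, *Abcc3*, *Abcc4* and *Slc51b*), 2 fell (*Abcg5* and *Abcg8*) and *Abcc2* did not pass the test. The tenth, *Slc51a*, was under the filter of a mean of 0.5 TPM over all libraries. *Slc51b* passed that filter only through KO, as its WT mean was 0.487 TPM, so the basolateral counts and median depend on the filter. Fitted without the filter, *Slc51b* again had a log2 fold change of 4.11 (limma adjusted p = 3.12e-08). Rises were common in this comparison: 50.1% of all tested genes passed the test upward and 4.82% downward at a limma adjusted p under 0.05. After rescaling, 4 members were higher (*Abcb4*, *Abcc3*, *Abcc4* and *Slc51b*) and 3 lower (*Abcc2*, *Abcg5* and *Abcg8*), against 20.6% and 18.8% of all tested genes. The median log2 fold change was 0.21 over the 6 canalicular members and 1.12 over the 3 tested basolateral ones (-0.24 and 0.81 after rescaling). The 6 KO values lay above all 6 WT values for *Abcb4*, *Abcc3* and *Slc51b* on both scales, as for 28.7% of tested genes as deposited and 10.6% after rescaling. They lay below all WT values for *Abcg8* as deposited (1.88% of tested genes), and for *Abcg8* and *Abcc2* after rescaling (8.25%).

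**Figure D1:**
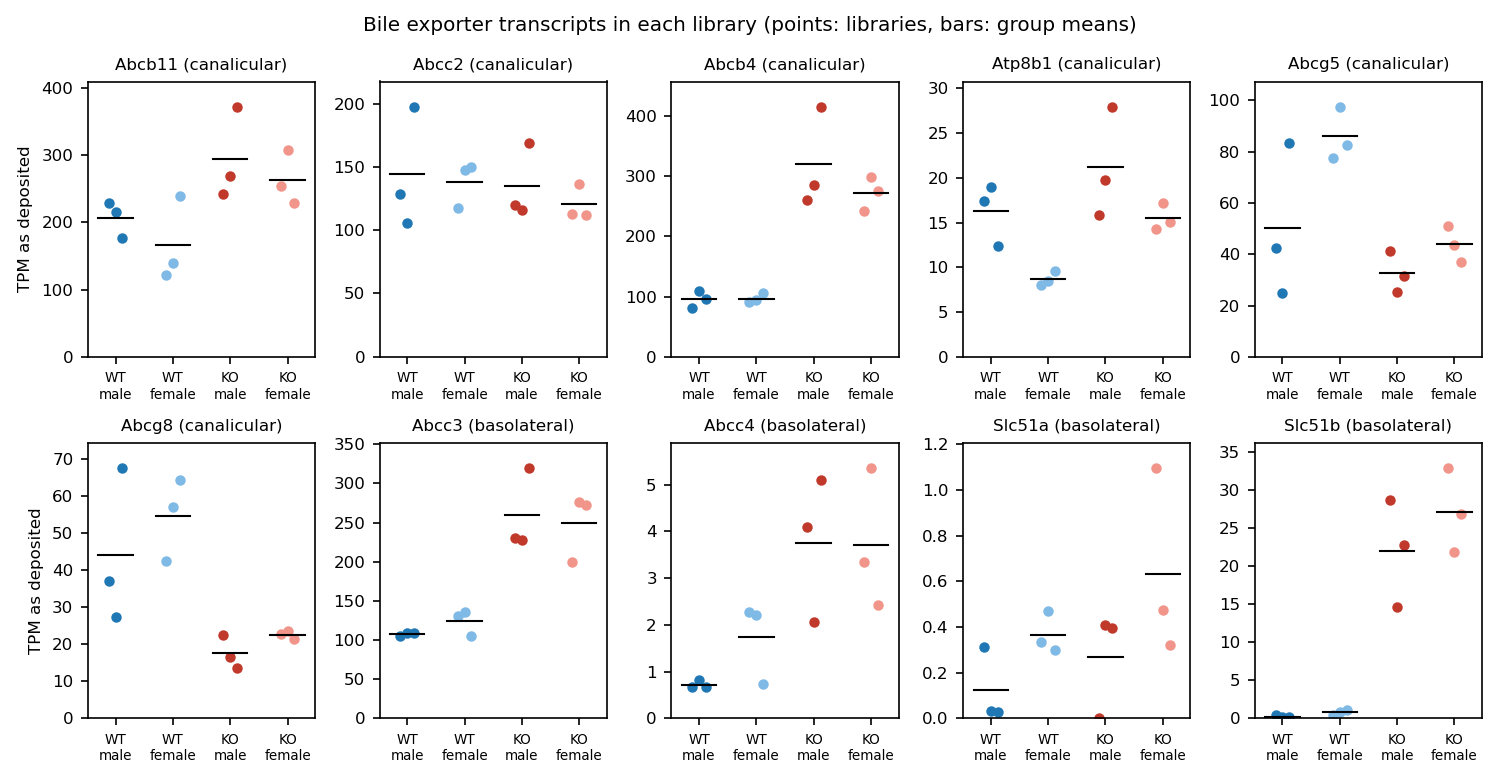
TPM as deposited (vertical axis, starting at 0, a separate scale for each gene) of the 10 exporters in the 4 groups of 3 libraries; points are libraries and bars are group means. All KO points of Abcb4, Abcc3 and Slc51b lie above all WT points, and all KO points of Abcg8 lie below all WT points.

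**Figure D2:**
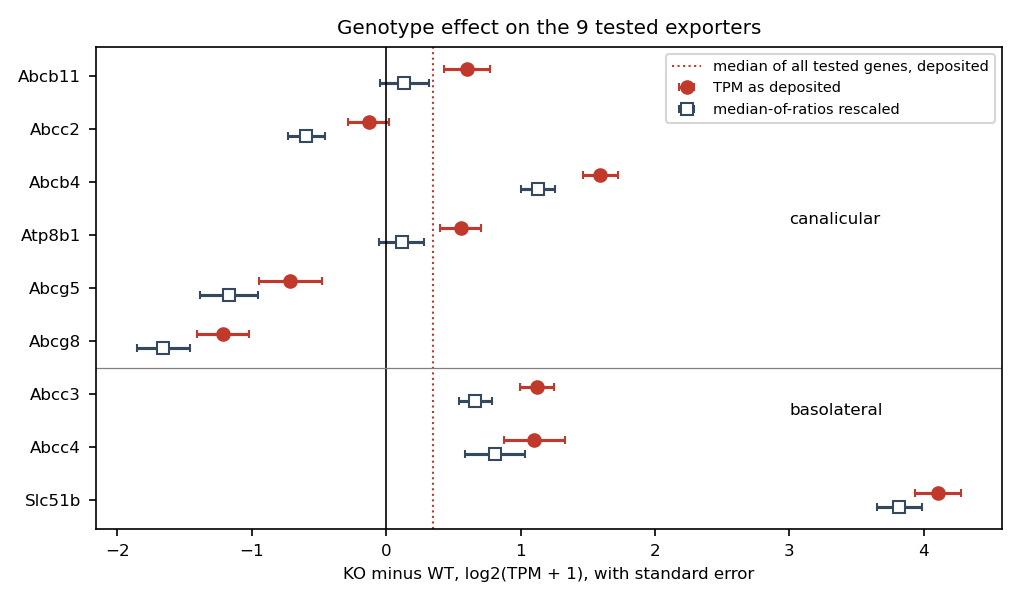
KO minus WT on the log2(TPM + 1) scale with its standard error for the 9 tested exporters, as deposited (filled circles) and after median-of-ratios rescaling (open squares); the dotted line is the median of all tested genes as deposited. Abcb4, Abcc3, Abcc4 and Slc51b lie to the right of 0 and Abcg5 and Abcg8 to the left on both scales, while Abcb11 and Atp8b1 move close to 0 after rescaling.

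The bile acid pump *Abcb11* (ENSMUSG00000027048, chromosome 2, 69238282 to 69342616 on the minus strand) had the highest mean of the 10 in WT, with a range that overlapped that of *Abcc2*. It was at 229, 215 and 177 TPM in WT males, 122, 139 and 239.7 TPM in WT females, 243, 268 and 373 TPM in KO males and 255, 307 and 229 TPM in KO females. WT female replicate 3 was the highest WT library and lay above the lowest KO library, so the genotypes overlapped. Within males, every KO library was above every WT library as deposited, but not after rescaling. *Abcb11* rose as deposited by 0.60 (limma SE 0.169, adjusted p = 0.00893) on the log2 scale, but after rescaling the difference was 0.14 (limma SE 0.180, adjusted p = 0.582). GENCODE places the antisense gene *Gm13613* over 24185 bases of the *Abcb11* gene span, introns included. Overlap of their exons was not measured, so whether they share counted reads is not known. The authors' deposited table gives *Abcb11* a log2 fold change of -0.11 with an FDR p-value of 0.84.

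*Abcc2* (ENSMUSG00000025194, chromosome 19, 43782192 to 43840740 on the plus strand), the canalicular pump for conjugates, was at 129, 106 and 198 TPM in WT males, 117, 148 and 149.7 TPM in WT females, 120.0, 116 and 169 TPM in KO males and 113, 136 and 112 TPM in KO females. The 4 groups overlapped throughout. The log2 difference as deposited was -0.13 (limma SE 0.154, adjusted p = 0.486), and ran from -0.23 to -0.027 when single libraries were left out, the first without WT male replicate 2 and the last without WT male replicate 3. After rescaling *Abcc2* fell by 0.59 (SE 0.134, limma adjusted p = 0.00349). The ratio of *Abcc2* to *Abcb11* within a library does not depend on scaling. It was 0.561, 0.492 and 1.12 in WT males and 0.962, 1.06 and 0.625 in WT females, and 0.494, 0.431 and 0.454 in KO males and 0.443, 0.444 and 0.488 in KO females. Of the 6 WT libraries, 5 were above all KO libraries, and WT male replicate 2 lay just inside the KO range.

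The phospholipid floppase *Abcb4* (ENSMUSG00000042476, chromosome 5, 8893717 to 8959231 on the plus strand) had the largest canalicular rise. It was at 81.8, 109.6 and 95.4 TPM in WT males and 90.2, 94.5 and 105 TPM in WT females, against 260.1, 284 and 415 TPM in KO males and 242, 299 and 274 TPM in KO females. The lowest KO library was above the highest WT library in both sexes. The WT mean was 96.1 ± 10.1 TPM and the KO mean 296 ± 61.7 TPM (SD, n = 6 each). The log2 fold change was 1.59 (limma SE 0.128, adjusted p = 4.54e-07) as deposited and 1.13 (limma SE 0.126, adjusted p = 1.46e-05) after rescaling. By mean TPM, *Abcb4* ranked 4 of 10 in WT and 1 of 10 in KO, although its KO range overlapped those of *Abcb11* and *Abcc3*. The ratio of *Abcb4* to *Abcb11*, a pairing chosen after the values were seen, ranged from 0.356 to 0.739 in WT and from 0.948 to 1.20 in KO, without overlap.

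The sterol half-transporters fell. *Abcg5* (ENSMUSG00000040505, chromosome 17, 84658234 to 84683011 on the minus strand) was at 42.6, 25.0 and 83.3 TPM in WT males, 77.5, 97.6 and 82.8 TPM in WT females, 41.4, 25.3 and 31.5 TPM in KO males and 51.0, 43.7 and 36.9 TPM in KO females. KO and WT females did not overlap, while WT males spread from the lowest of the 12 libraries, replicate 2, to well above every KO male. The log2 fold change was -0.71 (limma SE 0.236, adjusted p = 0.0206), and -1.17 (limma SE 0.217, adjusted p = 9.07e-04) after rescaling; when single libraries were left out it ran from -0.92 to -0.55, the last of these without WT male replicate 3, with limma adjusted p of at most 0.0490.

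*Abcg8* (ENSMUSG00000024254, chromosome 17, 84676302 to 84700333 on the plus strand) was at 37.1, 27.4 and 67.6 TPM in WT males and 42.4, 57.0 and 64.5 TPM in WT females, against 22.4, 16.7 and 13.6 TPM in KO males and 22.9, 23.5 and 21.3 TPM in KO females. Every KO library was below every WT library. The WT mean was 49.3 ± 16.1 TPM and the KO mean 20.1 ± 4.00 TPM (SD, n = 6 each). The log2 fold change was -1.21 (limma SE 0.193, adjusted p = 1.60e-04) as deposited and -1.66 (limma SE 0.197, adjusted p = 2.46e-05) after rescaling. The gene spans of *Abcg5* and *Abcg8* overlap on opposite strands over 6710 bases in GENCODE, introns included, and overlap of their exons was not measured. Whether strand was used in counting is not given in the sources used here, so the split between the pair is uncertain.

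The *Abcg5* to *Abcg8* ratio was 1.15, 0.912 and 1.23 in WT males, 1.83, 1.71 and 1.28 in WT females, 1.85, 1.51 and 2.32 in KO males and 2.23, 1.86 and 1.73 in KO females. It did not overlap between genotypes in males and did in females. On the log2 scale, the mean over males and females of the KO minus WT difference in this ratio was 0.53, and 0.33 without the 3 libraries of other number series.

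*Atp8b1* (ENSMUSG00000039529, chromosome 18, 64528967 to 64661267 on the minus strand), the aminophospholipid flippase, was the lowest canalicular member. It was at 17.4, 19.0 and 12.4 TPM in WT males, 8.05, 8.46 and 9.64 TPM in WT females, 15.8, 19.7 and 28.0 TPM in KO males and 14.3, 17.2 and 15.1 TPM in KO females. WT females were the lowest group and overlapped no other, and WT males overlapped both KO groups. It rose as deposited by 0.55 (limma SE 0.153, adjusted p = 0.00784), and the difference after rescaling was 0.12 (limma SE 0.166, adjusted p = 0.613). The authors' deposited table gives -0.30 with an FDR p-value of 0.27. *Tmem30a*, the subunit that ATP8B1 needs to leave the endoplasmic reticulum, was at 72.1 to 107 TPM in WT and 75.8 to 123 TPM in KO. The ratio of *Atp8b1* to *Tmem30a* was 0.139 to 0.182 in WT males and 0.0987 to 0.112 in WT females. It was 0.172 to 0.228 in KO males and 0.155 to 0.199 in KO females, so that only the females separated by genotype.

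Among the basolateral carriers, *Abcc3* (ENSMUSG00000020865, chromosome 11, 94343295 to 94392997 on the minus strand) was by far the most abundant. This carrier of glucuronides and bile acids was at 105, 108 and 109 TPM in WT males and 131, 135 and 105 TPM in WT females, against 231, 228 and 319.7 TPM in KO males and 199, 277 and 272 TPM in KO females. Every KO library was above every WT library. The WT mean was 116 ± 13.9 TPM and the KO mean 254 ± 43.2 TPM (SD, n = 6 each). The log2 fold change was 1.12 (limma SE 0.125, adjusted p = 7.80e-06) as deposited and 0.66 (limma SE 0.122, adjusted p = 8.94e-04) after rescaling. The authors' deposited table gives 0.57 with an FDR p-value of 0.11. The ratio of *Abcc3* to its canalicular homologue *Abcc2*, chosen after the values were seen, was 0.551 to 1.12 in WT and 1.77 to 2.44 in KO.

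*Abcc4* (ENSMUSG00000032849, chromosome 14, 118482692 to 118706219 on the minus strand), which exports bile acids together with glutathione, rose from a low level. It was at 0.668, 0.811 and 0.668 TPM in WT males, 2.29, 2.21 and 0.731 TPM in WT females, 4.10, 2.06 and 5.11 TPM in KO males and 3.34, 5.36 and 2.42 TPM in KO females. As deposited, the KO libraries were above the WT libraries within each sex, but 2 WT females lay above the lowest KO male. The third WT female, from the other number series, was at the level of the WT males. After rescaling the females overlapped and the males did not. The log2 fold change was 1.10 (limma SE 0.228, adjusted p = 0.00123), and 0.81 (limma SE 0.221, adjusted p = 0.0111) after rescaling. Its size depends on the pseudocount, and with 0.1 in place of 1 it was 1.64 as deposited, and 2.15 in males alone.

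*Slc51b* (ENSMUSG00000053862, chromosome 9, 65412714 to 65422955 on the minus strand), the β subunit of the organic solute transporter, had the largest change of the 10. It was at 0.386, 0.115 and 0.108 TPM in WT males and 0.410, 0.798 and 1.10 TPM in WT females, against 28.7, 14.7 and 22.8 TPM in KO males and 32.9, 21.8 and 26.8 TPM in KO females. No KO library came near the WT range. The WT mean was 0.487 ± 0.393 TPM and the KO mean 24.6 ± 6.33 TPM (SD, n = 6 each). The log2 fold change was 4.11 (limma SE 0.170, adjusted p = 1.01e-09) as deposited and 3.82 (limma SE 0.169, adjusted p = 3.58e-09) after rescaling. The size depends on the pseudocount, and with 0.1 in place of 1 the log2 fold change was 5.65. *Rasl12*, which overlaps the last 2140 bases of the *Slc51b* gene on the opposite strand, was at 0 to 0.0627 TPM in WT and 0.0491 to 0.268 TPM in KO.

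The α subunit was low in both genotypes. *Slc51a* (ENSMUSG00000035699, chromosome 16, 32474504 to 32487879 on the minus strand) was at 0.313, 0.0311 and 0.0292 TPM in WT males, 0.333, 0.468 and 0.298 TPM in WT females, 0, 0.409 and 0.394 TPM in KO males and 1.10, 0.475 and 0.322 TPM in KO females. KO female replicate 1 was the highest library, KO male replicate 1 was listed at 0, and the genotypes overlapped in both sexes. Fitted without the filter on low values, the log2 difference was 0.20 (SE 0.123, limma adjusted p = 0.234), and 0.093 after rescaling (limma adjusted p = 0.579). The last 567 bases of the *Slc51a* gene overlap *Pcyt1a* on the opposite strand. As deposited, *Pcyt1a* was at 22.8 to 35.2 TPM in WT and 36.0 to 58.8 TPM in KO (log2 fold change 0.47, limma adjusted p = 0.0133). The median of all tested genes was 0.35 on that scale, and the value of *Pcyt1a* after rescaling is not given here. Overlap of the exons of *Slc51a* and *Pcyt1a* was not measured, and reads from any shared exon bases cannot be told apart without strand. The ratio of *Slc51a* to *Slc51b* was 0.271 to 0.812 in WT and 0 to 0.0333 in KO. To 3 digits, the ratio was the same in 3 WT libraries (0.271) and in 2 others (0.812), as ratios of small whole numbers of reads can be, so counting error weighs on the WT values.

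**Figure D3:**
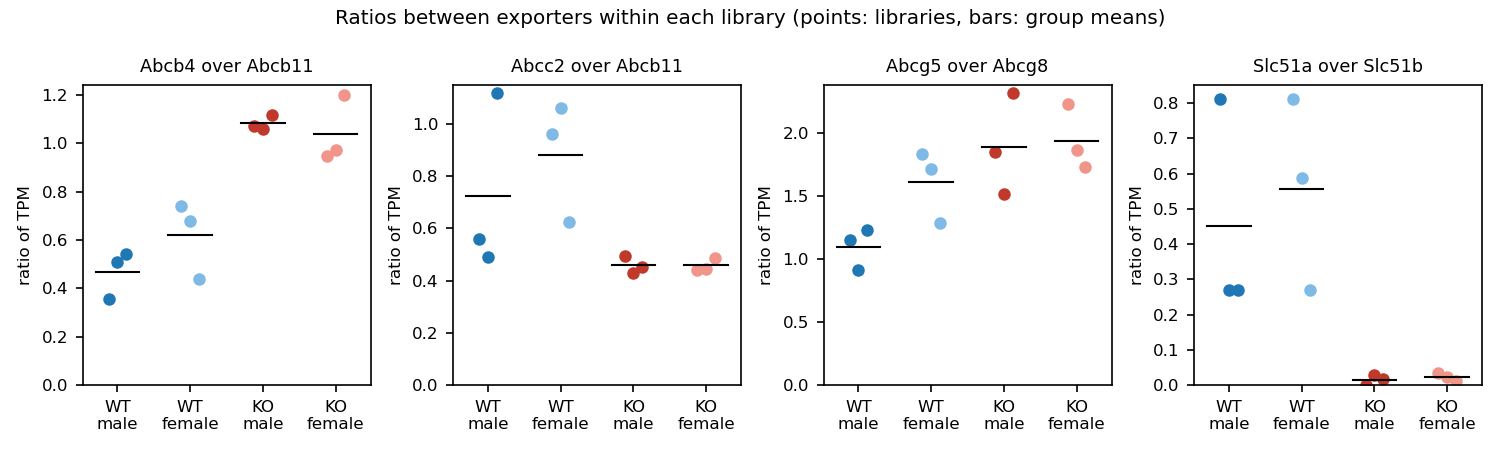
Ratios of TPM between pairs of exporters within each library (vertical axes start at 0), for Abcb4 over Abcb11, Abcc2 over Abcb11, Abcg5 over Abcg8 and Slc51a over Slc51b; points are libraries and bars are group means. The Abcb4 ratio in KO lies above and the Slc51a ratio below every WT library, while the Abcc2 and Abcg5 ratios overlap between the genotypes.

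The canalicular and basolateral classes were then set against each other within each library. The summed TPM of the 6 canalicular members was 458 to 652 in WT and 688 to 1029.9 in KO. The summed TPM of the 4 basolateral members was 106 to 139 in WT and 237 to 348 in KO. Canalicular transcripts exceeded basolateral ones in every library of both genotypes. The log2 ratio of basolateral to canalicular sums, which does not depend on scaling, was -2.34, -2.20 and -2.53 in WT males and -1.77, -1.97 and -2.61 in WT females. It was -1.41, -1.57 and -1.57 in KO males and -1.56, -1.44 and -1.19 in KO females, above every WT library. The mean over males and females of the KO minus WT difference was 0.78 and ran from 0.66 to 0.87 when single libraries were left out. No test was made of this score, because its members were chosen with results in view.

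**Figure D4:**
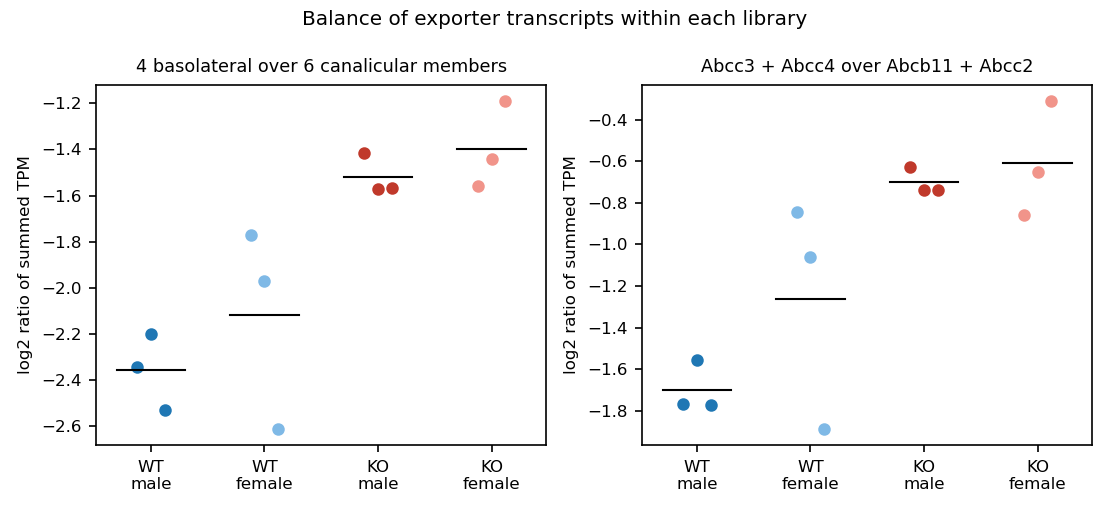
Log2 ratio of summed TPM within each library (vertical axes do not start at 0), for all basolateral over all canalicular members (left) and for Abcc3 plus Abcc4 over Abcb11 plus Abcc2 (right); points are libraries and bars are group means. On the left all KO libraries lie above all WT libraries, and on the right WT female replicate 1 overlaps the KO range.

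Most of the basolateral sum was *Abcc3*. It made up 97.5% to 99.3% of the basolateral sum in WT and 84.2% to 93.0% in KO. *Slc51b* made up 0.0984% to 1.03% in WT and 5.97% to 13.9% in KO. For the 4 ABC pumps of bile acids and conjugates alone, the log2 ratio of *Abcc3* plus *Abcc4* to *Abcb11* plus *Abcc2* ranged from -1.89 to -0.84 in WT and from -0.86 to -0.31 in KO. Here the genotypes overlapped, through WT female replicate 1 and KO female replicate 1.

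Within each sex, *Abcb4*, *Abcc3*, *Abcg8* and *Slc51b* passed the test in the same direction on both scales. In males 5 of 9 members passed as deposited (46.1% of all tested genes passed) and 7 after rescaling (24.0%). In females 7 of 9 passed as deposited (33.8%) and 5 after rescaling (26.0%). *Slc51b* rose by 4.22 (limma SE 0.244, adjusted p = 7.91e-08) in males and 3.99 (limma SE 0.244, adjusted p = 1.60e-07) in females (3.93 and 3.71 after rescaling). *Abcb4* rose by 1.71 (limma SE 0.180, adjusted p = 1.49e-05) in males and 1.48 (limma SE 0.180, adjusted p = 6.02e-05) in females (1.14 and 1.13 after rescaling). *Abcc3* rose by 1.25 (limma SE 0.174, adjusted p = 1.37e-04) in males and 1.00 (limma SE 0.174, adjusted p = 8.18e-04) in females (0.67 and 0.65 after rescaling). The male values of *Abcb4* and *Abcc3* were thus larger than the female ones as deposited and close to them after rescaling; the median of all tested genes as deposited was 0.44 in males and 0.27 in females. *Abcg8* fell, with log2 fold changes of -1.21 (limma SE 0.280, adjusted p = 0.00432) in males and -1.22 (limma SE 0.280, adjusted p = 0.00507) in females (-1.76 and -1.56 after rescaling).

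*Abcc4* passed in males on both scales, with 1.41 (limma SE 0.309, adjusted p = 0.00301) as deposited and 1.07 (limma SE 0.304, adjusted p = 0.0224) after rescaling. In females its difference was 0.79 (limma SE 0.309, adjusted p = 0.0662) as deposited and 0.54 (limma SE 0.304, adjusted p = 0.214) after rescaling. *Abcc2* passed in neither sex as deposited (-0.066 in males and -0.20 in females). After rescaling it was -0.64 (limma SE 0.196, adjusted p = 0.0321) in males, past the threshold, and -0.55 (limma SE 0.196, adjusted p = 0.0584) in females, which did not pass. *Abcb11* and *Atp8b1* passed in females as deposited, with 0.71 (limma SE 0.241, adjusted p = 0.0382) and 0.76 (limma SE 0.206, adjusted p = 0.0124), and in neither sex after rescaling of all 12 libraries. Without the 3 libraries of other number series, female *Abcb11* was 1.02 (limma adjusted p = 0.0135) as deposited and 0.73 (limma adjusted p = 0.0460) after rescaling. The female call of *Abcb11* was lost without WT female replicate 1 or 2 or KO female replicate 1 or 2 (limma adjusted p up to 0.161), without the filter on low values (limma adjusted p = 0.0620) and without the 20 most abundant genes (limma adjusted p = 0.0660). In males their differences were 0.49 and 0.34 as deposited and -0.087 and -0.21 after rescaling, none of them past the test. As deposited, the male difference of *Atp8b1* ran from 0.13 to 0.52 over the fits without 1 library, lowest without KO male replicate 3, at 0.17 without WT male replicate 3 and highest without KO male replicate 1. That of *Abcb11* was 0.31 (limma adjusted p = 0.356) without KO male replicate 3. Without WT female replicate 3, which enters the shared estimate of spread, the male difference of *Abcb11* passed (limma adjusted p = 0.0493). The female difference of *Abcc4* passed without KO male replicate 2 or KO female replicate 3 (limma adjusted p down to 0.0439). It was 0.49 (limma adjusted p = 0.259) without WT female replicate 3 and 0.55 (limma adjusted p = 0.222) without KO female replicate 2.

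*Abcg5* had -0.47 (limma SE 0.329, adjusted p = 0.253) in males and -0.96 (limma SE 0.329, adjusted p = 0.0392) in females as deposited, and after rescaling it passed in both, with -1.03 and -1.31. The male value was decided by WT male replicate 2, without which it was -0.87 (limma adjusted p = 0.0263), and by WT male replicate 3, without which it was -0.026 (limma adjusted p = 0.936). The female call as deposited was lost without any 1 of the 6 female libraries or KO male replicate 3 (limma adjusted p up to 0.122) and without the filter (limma adjusted p = 0.0697). The direct test of a difference between the sexes, the genotype by sex interaction, was passed by 0 of 9 members as deposited (0.912% of tested genes) and 0 after rescaling, with limma adjusted p of at least 0.696 and 0.644. Without adjustment, limma gave 0 of 9 members under 0.05 as deposited, where 1087 of 12278 genes were, and 1 of 9 after rescaling (*Atp8b1*, male minus female effect -0.65), where 931 of 12213 genes were.

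Between the sexes in WT, 1 of 9 members passed on either scale, *Atp8b1*, which was 16.3 ± 3.44 TPM in males and 8.72 ± 0.824 TPM in females (SD, n = 3). The male minus female difference was 0.81 (limma SE 0.206, adjusted p = 0.0394), and 1.03 (limma SE 0.205, adjusted p = 0.0139) after rescaling. Of all tested genes, 5.74% passed as deposited and 4.39% after rescaling. The call was lost in 7 of 12 fits that left out 1 library, namely WT male replicate 1 or 2, any WT female, KO male replicate 2 or KO female replicate 3 (limma adjusted p up to 0.160) and in the fits without the filter and without the 3 libraries of other number series. In KO, 0 of 9 members differed between the sexes by limma at an adjusted p under 0.05 (0.0814% of tested genes) and 0 at an unadjusted p under 0.05, where 655 of 12278 genes were. *Atp8b1* was then at 21.2 ± 6.21 TPM in males and 15.5 ± 1.52 TPM in females.

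In the authors' deposited table, 3 of 10 members are higher and 2 lower in KO at an FDR p-value of 0.01 or lower, against 12.5% and 6.81% of its 17332 genes with a value. In the authors' deposited table these are *Abcb4* (log2 fold change 1.00), *Abcc4* (1.41), *Slc51b* (5.46), *Abcg5* (-0.72) and *Abcg8* (-1.46). The authors' deposited table lists *Abcc2* at -0.60 (FDR p-value 0.11) and *Slc51a* at 0.86 (FDR p-value 0.43). For *Abcb11* and *Atp8b1* its sign is opposite to that of the fold changes on the deposited TPM scale.

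The other genes of bile handling were counted in lists by role, to be read against the 50.1% of all tested genes that rose and the 4.82% that fell as deposited, and the 20.6% and 18.8% after rescaling. Of the 5 uptake carriers, 3 fell and 0 rose (4 and 0 after rescaling), with a median log2 fold change of -1.04 as deposited and -1.50 after rescaling. *Slco1a1* (log2 fold change -6.18, -6.48 after rescaling), *Slc10a1* (log2 fold change -1.32, -1.79 after rescaling) and *Slco1b2* (log2 fold change -1.04, -1.50 after rescaling), all sinusoidal importers of bile acids or organic anions, were the largest. Of 13 synthesis and conjugation genes, 5 fell and 2 rose (9 and 0 after rescaling), with a median of -0.30 as deposited and -0.76 after rescaling. *Cyp7b1* and *Cyp8b1*, hydroxylases of the alternative and cholic acid routes, and *Akr1c6* led these, with -3.46, -2.66 and -0.74 (-3.90, -3.11 and -1.21 after rescaling). WT libraries varied widely for *Cyp7b1*, from 38.9 to 515 TPM, against 10.5 to 13.9 TPM in KO. For *Slco1a1* they ran from 42.2 to 267 TPM, against 0.153 to 1.15 TPM in KO.

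Of the 16 nuclear receptors and regulators, 14 were tested, and 5 rose and 1 fell (1 and 7 after rescaling), with a median of 0.10 as deposited and -0.35 after rescaling. *Ppara*, the fatty acid receptor, fell from a WT mean of 39.1 ± 12.3 TPM to a KO mean of 15.3 ± 3.68 TPM (log2 fold change -1.27, -1.71 after rescaling; SD over 6 libraries each). *Fgfr4*, the hepatic receptor for the ileal hormone FGF15, rose from a WT mean of 23.7 ± 3.93 TPM to a KO mean of 41.7 ± 6.16 TPM (log2 fold change 0.79, 0.34 after rescaling). *Nr1h4* and its target *Nr0b2*, named outside the rule after their values were seen, did not pass as deposited. *Nr1h4* was at 89.7 ± 31.9 TPM in WT and 67.1 ± 11.1 TPM in KO (log2 difference -0.34, limma adjusted p = 0.158; -0.80 after rescaling, limma adjusted p = 0.00196). *Nr0b2* was at 68.4 ± 23.4 TPM and 47.8 ± 9.85 TPM (log2 difference -0.47, limma adjusted p = 0.0665; -0.92 after rescaling, limma adjusted p = 0.00556).

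Of 13 partners, scaffolds and trafficking genes of the canalicular carriers, 7 rose and 0 fell (3 and 3 after rescaling), close to the shares over all tested genes, with a median of 0.31 as deposited and 0.0040 after rescaling. *Msn*, a membrane to actin linker also made by leukocytes and endothelium, rose from a WT mean of 8.56 ± 2.45 TPM to a KO mean of 26.7 ± 7.26 TPM (log2 fold change 1.53, 1.09 after rescaling; SD over 6 libraries each). *Stx3*, an apical syntaxin, rose from a WT mean of 2.24 ± 0.338 TPM to a KO mean of 4.40 ± 0.548 TPM (log2 fold change 0.74, 0.39 after rescaling). Of 5 other canalicular carriers, 2 rose and 0 fell (2 and 1 after rescaling), with a median of 0.34 as deposited and -0.092 after rescaling. These were the drug pump *Abcb1a*, from a WT mean of 2.64 ± 2.28 TPM to a KO mean of 11.0 ± 3.07 TPM (log2 fold change 1.96, 1.63 after rescaling), and the water channel *Aqp8*, from a WT mean of 109 ± 62.3 TPM to a KO mean of 283 ± 70.6 TPM (log2 fold change 1.56, 1.10 after rescaling). Of 5 other basolateral ABC exporters, 3 rose and 0 fell (3 and 2 after rescaling), with a median of 0.75 as deposited and 0.55 after rescaling. They were the sterol exporter *Abcg1* (log2 fold change 1.27, 0.93 after rescaling) and the conjugate and nucleotide pumps *Abcc5* (log2 fold change 1.22, 0.93 after rescaling) and *Abcc1* (log2 fold change 0.75, 0.55 after rescaling), each with a WT mean under 2 TPM.

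Genes with profiles most like 2 members were found by the root-mean-square difference over the 12 libraries between log2(TPM + 1) values, each centred on its WT mean. For *Slc51b* they were *Col1a1* (0.271), *Gpx3* (0.293) and *Rasal1* (0.315), and for *Abcb11* they were *Evi5* (0.110), *Stat5b* (0.130) and *Arhgef10l* (0.142), all in log2 units. This measure describes likeness of size and pattern in these libraries.

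Markers of other cell types were counted in the same way, against the same shares of all tested genes. Bile duct cells and ileal enterocytes also express *Slc51a*, *Slc51b* and *Abcc3*. Of 12 cholangiocyte markers, 8 were tested, and 6 rose and 1 fell (5 and 1 after rescaling). Their summed level was 42.7 to 76.7 TPM in WT and 319.6 to 778 TPM in KO, largely *Spp1*, which had means of 33.8 TPM in WT and 492 TPM in KO. *Cldn7* went from 0.248 to 11.3 TPM, *Prom1* from 1.19 to 15.4 TPM, *Slc10a2* from 8.74 to 28.3 TPM and *Sox9* from 3.20 to 11.0 TPM, all of which rose on both scales. The keratins *Krt19* (1.38 TPM in WT, 1.24 TPM in KO) and *Krt7* (0.229 and 0.255 TPM) were low in both genotypes, and *Epcam* (0.940 and 0.515 TPM) was lower in KO. *Cftr*, *Sctr* and *Muc1* had means under 0.5 TPM in both genotypes. None of the 12 was at 0 in every library, and these genes were named after their values were seen. Of 4 intestinal markers 2 were tested, of which 0 rose and 1 fell on each scale, and *Cdx2* was listed at 0 in all 12 libraries. The sum of the 4 was 47.9 to 113 TPM in WT and 26.6 to 42.6 TPM in KO. It was largely *Fabp2*, which had means of 75.9 TPM in WT and 27.0 TPM in KO.

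All 6 macrophage markers rose on both scales, with sums of 62.9 to 212 TPM in WT and 316 to 659 TPM in KO. Of 7 stellate and fibroblast markers 4 rose (2 rose and 1 fell after rescaling), with sums of 60.3 to 166 and 147 to 363 TPM. Both neutrophil markers tested of 4 rose (0 after rescaling; 0 to 15.4 and 7.87 to 38.3 TPM). Of 4 platelet markers 3 were tested and 1 rose on each scale (2.10 to 5.32 and 4.44 to 14.0 TPM). Of 5 endothelial markers 0 rose and 1 fell (2 fell after rescaling; 36.8 to 57.9 and 21.1 to 85.0 TPM). Of 6 hepatocyte markers 1 rose and 2 fell (0 and 3 after rescaling), with sums of 85783 to 110903 TPM in WT and 59094 to 84257 TPM in KO, high in every library. The part of these cells in the exporter results was not tested. Without the 3 libraries of other number series, an alternative added after the data were seen, the count of members past the threshold was 8 of 9 as deposited and 7 of 9 after rescaling, as with all 12 libraries.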

How the data were processed

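The authors deposited 1 table of TPM with a column for each of the 12 libraries, per the file headers, and their own KO against WT comparison (an FDR p-value to 2 decimals, beside the fold change and its log2). The submitters' processing notes name edgeR and GRCm38 without a role; aligner, counter and use of strand are not given in the sources used here. Per the labels' protocols, RNA came from frozen liver by Trizol and silica columns with DNase. All 12 columns matched 1 sample each by description.

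TPM were transformed as log2(TPM + 1) and genes with a mean of at least 0.5 TPM entered limma (version 3.58.1, R version 4.3.3; eBayes with intensity trend), with two-sided p-values adjusted by Benjamini-Hochberg over 12278 genes at a threshold of 0.05. Genotype was fitted over 12 libraries with sex as covariate; contrasts within sex or genotype and the interaction came from 1 model of the 4 group means. Rescaling used median-of-ratios factors over 12819 genes above 0 in all libraries, with 12213 genes tested. Ratios were taken on TPM, except that *Slc51a* was set against *Slc51b* also as a difference of log2(TPM + 1), since 1 library lists *Slc51a* at 0. The script was tested on simulated data. Positions are from GENCODE mouse release M21 (GRCm38) and promoters from RefSeq. The members and lists were chosen with earlier results of these data known. Named genes were all members, up to 3 of each pathway list past the threshold on both scales by largest log2 fold change, and the 3 most similar profiles; 1 gene that this rule names is not reported here. Alternatives were scaling, abundant genes, pseudocount, filter, trend, number series and left-out libraries.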

Additional observations from a re-analysis of the deposited data

How the results depend on the processing

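Direction and call of *Abcb4*, *Abcg5*, *Abcg8*, *Abcc3*, *Abcc4* and *Slc51b* in the genotype comparison held under every alternative run. The number of members past the threshold was 8 in each of the 12 fits without 1 library (8 to 8), 5 to 6 in males, 5 to 8 in females, and 0 to 0 for the interaction and for sex in KO. For sex in WT it was 0 to 2 in those fits, 2 with a pseudocount of 0.1, 0 without a filter, and 0 without the 3 libraries of other number series on either scale; the cause was not tested. In males, rescaling turned *Abcb11* to -0.087 and *Atp8b1* to -0.21, and without the 3 libraries as well they were 0.0027 and -0.035, none past the test. Male *Abcc2* as deposited ran from -0.26 to 0.19 when single libraries were left out, never past the test, and passed after rescaling (-0.64; -0.78 also without the 3 libraries). The cause was not tested. The basolateral to canalicular difference was 1.52 with the mean of log2(TPM + 1) in place of summed TPM, which gives *Slc51b* the same weight as *Abcc3*, and 0.55 with *Abcg5* and *Abcg8* left out of the canalicular class. Without the filter, the female count was 5 in place of 7, and it was 6 without the 20 most abundant genes. Left-out libraries gave 0.67 to 0.93 for the 4 pumps, 0.45 to 0.60 for *Abcg5* to *Abcg8*, 0.47 to 0.59 for *Atp8b1* to *Tmem30a* (log2 ratios), and -4.08 to -3.72 for the *Slc51a* minus *Slc51b* difference of log2(TPM + 1), which is not a TPM ratio. No paired analysis was possible because the labels give no replicate numbers shared between groups. TPM carries no depth, so the precision of *Slc51a*, *Abcc4* and WT *Slc51b* is unknown.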

Other observations

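Some ratios between canalicular members, chosen after the values were seen, varied less between KO libraries than between WT libraries. *Abcc2* to *Abcb11* was 0.803 ± 0.275 in WT and 0.459 ± 0.0262 in KO (SD, n = 6). *Abcb4* to *Abcb11* was 0.544 ± 0.144 in WT and 1.06 ± 0.0931 in KO. The ratio of *Atp8b1* to *Abcb11* lay within the WT range in every KO library, 0.0402 to 0.0884 in WT and 0.0560 to 0.0750 in KO. *Abcg8* to *Abcb4*, the members that moved furthest apart at the canalicular side, was 0.250 to 0.708 in WT and 0.0327 to 0.0946 in KO. The difference in spread was not tested.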
